A study of Mus musculus with 7 samples.

Results

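The 7 genes described here, *Phc1*, *Chd6*, *Nup210*, *Etv1*, *Mapk4*, *Kcnt2* and *Igsf9*, each lie at a putative Reprogramming-Inducible Enhancer (RIE) that already carried a called ATAC-seq peak in mouse embryonic fibroblasts (MEFs) and carried one in each later library. The study lists 66 putative RIEs, which are sites near the start of genes that rise between MEFs and embryonic stem cells (ESCs) and that are densely bound by the reprogramming factors Oct4, Sox2, Klf4 and Myc. A peak overlapped 16 of the 66 sites in all 7 libraries (24.2%, exact 95% interval 14.5% to 36.4%, which covers counting error only). The 7 genes belong to these 16 sites, and the other 9 sites belong to *Ubald2*, *Ccdc85c*, *Ypel1*, *Uhrf1bp1*, *Msh6*, *Ppargc1b*, *Pogz*, *Podxl* and *Jade3*. The genes were selected on the called peaks of all 7 libraries, so the presence of a peak at the site is a description and not a result.

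ATAC-seq releases and sequences the DNA that Tn5 transposase can reach in nuclei, and a peak is a stretch where the released fragments pile up. The MEFs carried the tetO-Pou5f1,-Klf4,-Sox2,-Myc cassette at *Col1a1* together with rtTA*M2 at ROSA26, and they were collected untreated (day 0) and after 1, 2, 3, 6 and 9 days with doxycycline at 2 µg/mL, which switches the cassette on. The ESC library came from untreated Bruce-4 cells, for which the labels enter the genotype of the MEFs. Each time-point had 1 library, so no difference between time-points could be tested against replicate error, and the doxycycline-treated cultures may hold cells at different stages.

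The peak lists held 61241 peaks on day 0, between 33007 and 48087 on days 1 to 9 and 27074 in ESCs, and a peak was at least 200 bp wide in every library. The lists give no score, and the common read depth to which the authors downsampled is unknown. A missing peak therefore means that none was called, and does not show that the DNA was closed. Promoter peaks, within 1000 bp of the gene start, were called at 54.5% of 21938 protein-coding genes on day 0 and at 46.0% in ESCs. As a check of the labels, 8 of 10 fibroblast markers had a promoter peak on day 0 and 2 in ESCs. Of 7 epithelial markers, 0 had one on day 0 and 3 in ESCs. Of 12 pluripotency markers, 3 had a promoter peak on day 0 and 1 in ESCs, which was *Zfp42*, so the defining ESC markers mostly lacked a promoter peak in the ESC library. A peak within 20 kb of the gene body was called for 9 of these 12 genes on day 0 and 11 in ESCs, and for 10 and 8 of the 10 fibroblast markers, so these windows do not separate the cell types.

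Promoters of widely used genes, often rich in CpG, tend to be open in most cell types, whereas enhancers away from gene starts tend to open in some cell types only. Oct4 and Sox2 can bind sites in closed chromatin, and reprogramming of MEFs involves both the closing of fibroblast elements and the opening of ESC elements. The 7 genes have unlike functions. *Phc1* encodes a polyhomeotic subunit of Polycomb repressive complex PRC1, *Chd6* a chromodomain helicase that remodels nucleosomes and *Nup210* a membrane-spanning protein of the nuclear pore. *Etv1* encodes an ETS transcription factor, *Mapk4* an atypical MAP kinase, *Kcnt2* a sodium-activated potassium channel of the Slo family and *Igsf9* an adhesion protein of the immunoglobulin superfamily.

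The sequences of 3 of the sites show how unlike the elements are. They were read from GRCm38.p6 (the mm10 sequence) on the strand of each gene, and capitals mark the letters of any motif searched. The motifs were ATGCAAAT (octamer), ACAAAG and ACAATG (Sox core), GGGNGGGG (Klf), CACGTG (E-box), TGANTCA (AP-1), GGAATG (Tead) and CCGGAAGT (ETS), searched on both strands, with overlapping matches counted. The *Phc1* site is shown as 2 stretches, since it holds a peak element in the gene body (chr6:122339219-122339518, minus strand) and another at the gene start (chr6:122340620-122340919, minus strand). The *Chd6* stretch (chr2:161109108-161109407, minus strand) lies under a peak in all 7 libraries, and so does the *Kcnt2* stretch (chr1:140245780-140245956, plus strand), which is all that the 7 *Kcnt2* peaks share.
Phc1 gene body: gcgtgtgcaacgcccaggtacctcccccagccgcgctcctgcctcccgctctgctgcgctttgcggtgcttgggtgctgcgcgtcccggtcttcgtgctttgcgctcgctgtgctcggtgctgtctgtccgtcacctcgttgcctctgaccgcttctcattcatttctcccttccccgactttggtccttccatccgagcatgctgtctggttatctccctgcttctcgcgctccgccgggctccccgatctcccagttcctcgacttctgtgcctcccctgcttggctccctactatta
Phc1 gene start: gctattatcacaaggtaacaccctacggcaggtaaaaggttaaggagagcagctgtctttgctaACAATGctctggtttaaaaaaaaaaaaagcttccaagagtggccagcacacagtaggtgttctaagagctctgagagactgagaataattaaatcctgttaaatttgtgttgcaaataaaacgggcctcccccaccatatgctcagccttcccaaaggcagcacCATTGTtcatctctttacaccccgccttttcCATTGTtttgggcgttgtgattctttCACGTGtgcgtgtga
Chd6 site: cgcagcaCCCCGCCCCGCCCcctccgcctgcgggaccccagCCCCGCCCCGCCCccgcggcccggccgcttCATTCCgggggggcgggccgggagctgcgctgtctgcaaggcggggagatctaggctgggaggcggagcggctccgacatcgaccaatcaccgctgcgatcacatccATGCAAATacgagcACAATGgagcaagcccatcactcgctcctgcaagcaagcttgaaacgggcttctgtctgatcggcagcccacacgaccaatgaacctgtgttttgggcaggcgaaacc
Kcnt2 site: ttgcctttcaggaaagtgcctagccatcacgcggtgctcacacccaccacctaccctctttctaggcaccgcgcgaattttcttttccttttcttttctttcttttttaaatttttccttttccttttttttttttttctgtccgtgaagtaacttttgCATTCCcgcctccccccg

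The gene-body stretch of *Phc1* had a GC content of 63.0% and a CpG observed/expected ratio of 0.906, and held none of the 8 motifs. The gene-start stretch had a GC content of 44.0%, a CpG ratio of 0.414, 3 matches to ACAATG and 1 to CACGTG. For scale, the median CpG ratio was 0.847 in regions near a gene start with a peak in all 7 libraries and 0.384 in all RefSeq promoter windows of the same length, 300 bp. The *Chd6* stretch held 1 octamer ATGCAAAT and 1 ACAATG close to each other, 4 overlapping or neighbouring matches to GGGNGGGG and 1 to GGAATG. An octamer was present in 1 of 7 site windows (2 of *Phc1* and 1 each of *Chd6*, *Igsf9*, *Nup210*, *Etv1* and *Kcnt2*, each 300 bp), in 1.74% of RefSeq promoters and in 1.12% of regions near a gene start with a peak in all 7 libraries. ACAATG was found in 3 of the 7 windows, against 12.6% of promoters and 5.25% of those regions. GGGNGGGG was found in 3 of 7 windows, against 33.3% of promoters and 50.0% of those regions. AP-1 and ETS letters were found in 0 of 7 windows, against 7.81% and 3.89% of promoters. GGAATG was found in 3 windows (14.7% of promoters), CACGTG in 1 (7.15%) and ACAAAG in 0 (18.7%). Each stretch is the longest part of its element outside annotated untranslated regions, cut to its central 300 bp where longer, and each window is centred on it. It measures 53 of the 180 bp in the longest shared interval of *Igsf9*, 50 of 82 bp at *Etv1* and all 177 bp at *Kcnt2*. The windows of these 3 genes so reach beyond the bases that the libraries share. With 7 windows, these counts are descriptions, and a match to letters does not show that a factor binds.

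At *Phc1* each library had a peak at the site, but the called peaks fell on different parts of it. *Phc1* (ENSMUSG00000040669.14) lies on chromosome 6 from 122317731 to 122340561 on the minus strand, and its site of 3581 bp runs from 122339191 to 122342771. The gene-body element, at 586 to 1420 bp into the gene, had 642, 557, 200, 0, 530, 537 and 0 bp under peaks, in the order day 0, 1, 2, 3, 6, 9 and ESCs that is used throughout. The gene-start element, from -417 to 180 bp, had 0, 209, 507, 510, 477, 0 and 463 bp. The first element thus had peaks in MEFs and not in ESCs, and the second in ESCs and not in MEFs, with both called on days 1, 2 and 6. Day 3 had the gene-start element alone and day 9 the gene-body element alone, so the calls followed no steady course. Of the 14 annotated transcript starts of *Phc1*, 6 lie under the gene-body element, between 853 and 949 bp into the gene, and 2 under the gene-start element. ESCs also had a peak of 200 bp at -1852 to -1653 bp that no other library had. No base of the *Phc1* site was under a peak in all 7 libraries.

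At *Mapk4* the called peaks also fell on different parts of the site, but its day 0 element had a peak in ESCs too. *Mapk4* (ENSMUSG00000024558.12) lies on chromosome 18 from 73928486 to 74065359 on the minus strand, and the site of 1543 bp reaches from -139 to 1403 bp of the gene start. The element at 177 to 689 bp, which overlaps an exon of *Gm9925* too, had 325, 0, 0, 370, 486, 0 and 302 bp under peaks from day 0 to ESCs. The element at 892 to 1517 bp had 0, 323, 239, 620, 498, 494 and 206 bp. The second element lacked a peak on day 0 alone, and the first carried the day 0 peak that brought the gene into the set. The smallest overlap between a peak and the *Mapk4* site was 160 bp, 10.4% of the site, on day 2. As at *Phc1*, 0 bases of the site were under a peak in all 7 libraries, whereas the other 5 genes shared between 82 bp (*Etv1*) and 632 bp (*Chd6*). Of the other 9 sites, 7 had such shared bases.

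**Figure D1:**
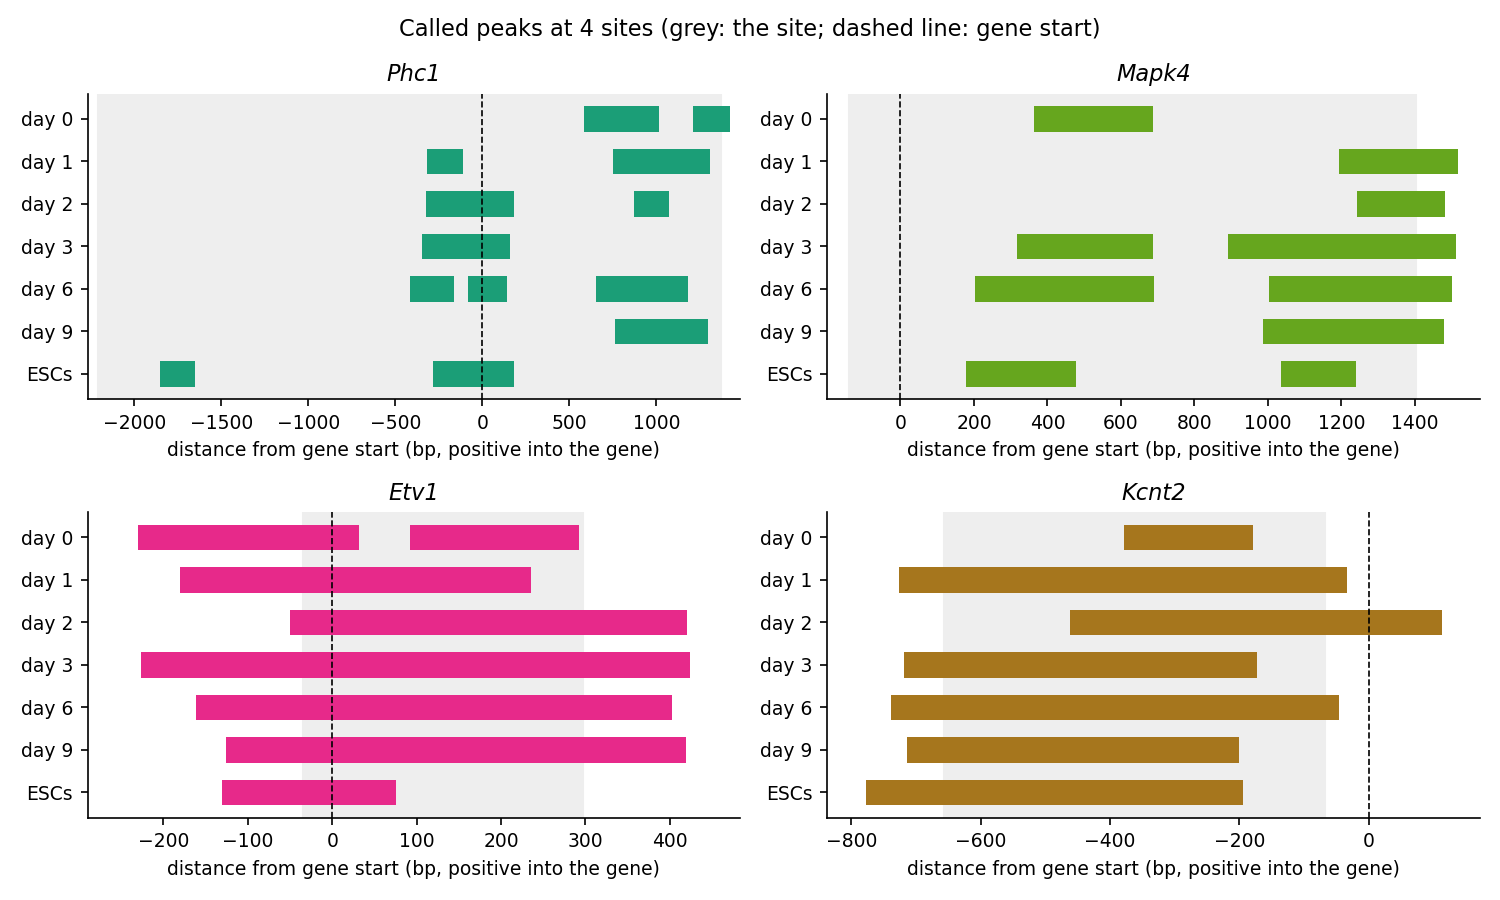
Called peaks (bars) at the *Phc1*, *Mapk4*, *Etv1* and *Kcnt2* sites in each of the 7 libraries (rows), by distance from the gene start in bp, with the site in grey and the gene start as a dashed line. At *Phc1* the day 0 peaks lie 586 to 1420 bp into the gene and the widest ESC peak spans the gene start, while at *Kcnt2* the peak was 200 bp wide on day 0 and at least 513 bp in the other libraries.

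At *Chd6* and *Nup210* a single peak lay over the gene start in all 7 libraries, and at *Chd6* it kept nearly the same width. The *Chd6* peak (ENSMUSG00000057133.14, chromosome 2, site 161108347 to 161109442) was 689, 658, 698, 683, 683, 715 and 677 bp wide from day 0 to ESCs. Its widest and narrowest values differed 1.09-fold, and 0.492% of 8136 regions near a gene start (within 2500 bp) with a peak in all 7 libraries varied as little or less. The *Nup210* peak (ENSMUSG00000030091.17, chromosome 6, site 91115988 to 91116987) was 639, 637, 623, 663, 696, 781 and 804 bp wide, so the day 9 and ESC peaks were the widest. That range, 1.29-fold, was below the background median of 1.59-fold. In *Chd6*, *Nup210* and *Etv1* the gene start itself was under a peak in all 7 libraries. In *Mapk4* it was under a peak in 0 libraries, in *Kcnt2* on day 2 alone, in *Igsf9* on days 3, 6 and 9, and in *Phc1* on days 2, 3 and 6 and in ESCs. Among all protein-coding genes, 25.0% had the gene start under a peak in all 7 libraries. The 7 genes were chosen for peaks close to their starts, so their count cannot be compared with that share.

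The widths varied most at *Mapk4* (4.14-fold, over its 2 elements together), *Kcnt2* (3.46-fold) and *Etv1* (3.14-fold). The *Kcnt2* site (ENSMUSG00000052726.15, chromosome 1, site 140245501 to 140246090, just upstream of the gene start at 140246158) had a peak of 200 bp on day 0, the smallest width in any list. The peak was then 693, 575, 547, 693, 513 and 583 bp wide from day 1 to ESCs. Each of the 6 later libraries thus had a peak at least 2.56 times as wide as day 0. *Etv1* (ENSMUSG00000004151.17, chromosome 12, site 38779345 to 38779677) had 462, 417, 470, 651, 564, 545 and 207 bp from day 0 to ESCs, in 2 peaks on day 0 and in 1 otherwise. The total width at *Etv1* was lowest in ESCs, at 0.448 times the day 0 total, which sums peaks of 262 and 200 bp. The ESC peak of 207 bp was close to the smallest width in any list, 200 bp. *Igsf9* (ENSMUSG00000037995.15, chromosome 1, site 172481566 to 172482314) had 599, 522, 449, 604, 655, 614 and 462 bp, in 2 peaks on days 1 and 2 and in 1 peak otherwise, with the narrowest totals on day 2 and in ESCs. Over the site as a whole, *Phc1* had between 510 bp (day 3) and 1007 bp (day 6) and *Mapk4* between 239 bp (day 2) and 990 bp (day 3).

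**Figure D2:**
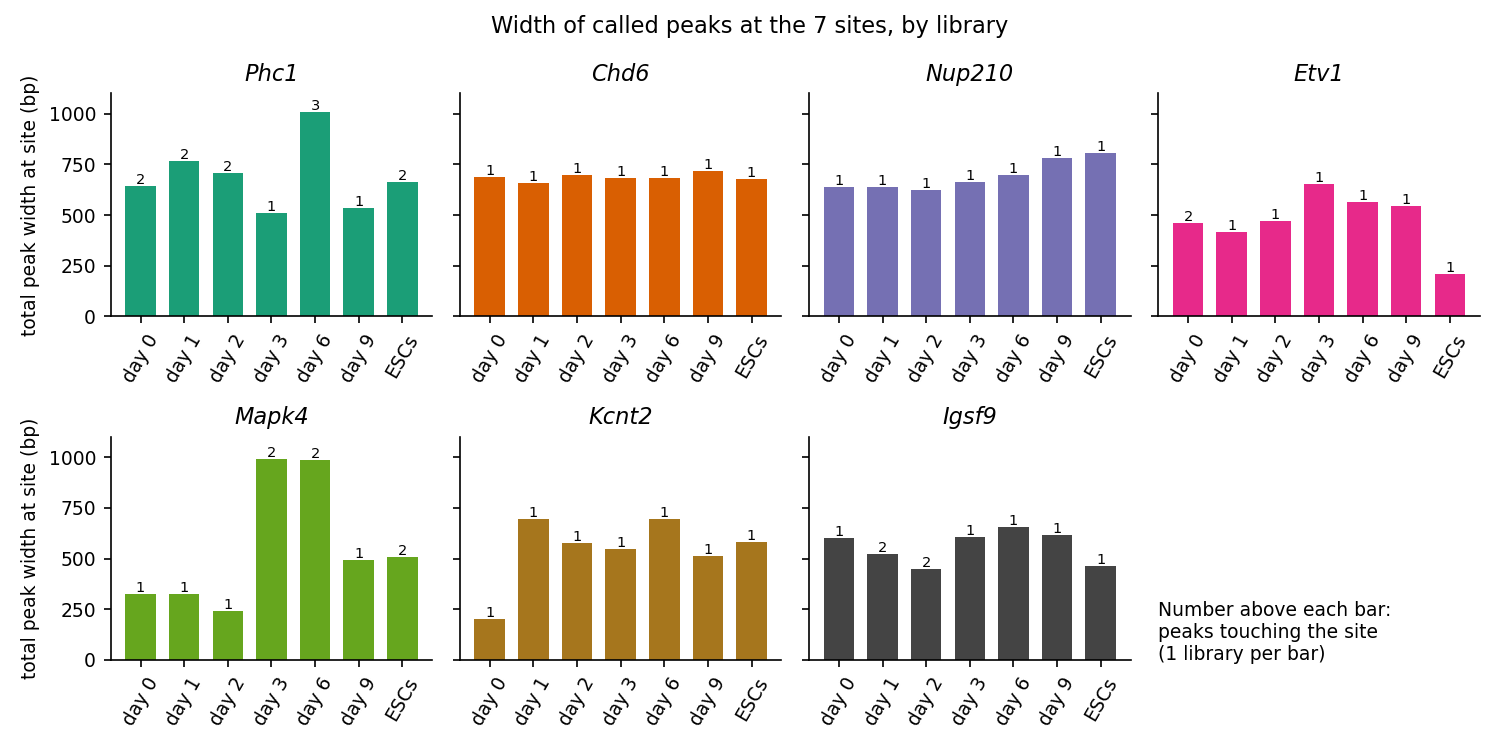
Total width in bp (bars) of the called peaks that touch each of the 7 sites, in each library, with the number of peaks above each bar. *Chd6* stayed between 658 and 715 bp, *Kcnt2* was narrowest on day 0 (200 bp) and widest on days 1 and 6 (693 bp), and *Etv1* had 207 bp in ESCs.

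Against day 0 and at a fold of 1.5, the site peaks of *Kcnt2* were wider on day 1, which makes 1 of 7 genes (1.4% of the 8136 background regions), and 0 were narrower (9.67%). On day 9 *Mapk4* and *Kcnt2*, 2 of 7, were wider (1.2%) and 0 narrower (13.4%). In ESCs the same pair was wider (1.02%), and *Etv1*, 1 of 7, was narrower (34.1%). The *Mapk4* calls sum its 2 elements: the day 0 peak lies in the element at 177 to 689 bp and the day 9 peak in the other, so they do not show that a peak widened, and the day 9 call was lost when bases of the site itself were counted. At the other 9 sites, *Ppargc1b* was wider and *Pogz* narrower on day 1, *Uhrf1bp1* and *Pogz* were narrower on day 9, and *Uhrf1bp1*, *Pogz* and *Podxl* were narrower in ESCs. The median width ratio to day 0 of the 7 genes was 0.994 on day 1, 1.18 on day 9 and 1.03 in ESCs, beside 0.922, 0.892 and 0.775 in the background. For the other 9 sites it was 0.884, 0.851 and 0.764. When each library was cut to its 27074 widest peaks, the peaks of *Kcnt2*, *Etv1*, *Mapk4*, *Phc1* and *Igsf9* dropped out of at least 1 library. *Chd6* and *Nup210* were left in all 7, and 0 of the genes that kept a day 0 peak were wider or narrower in ESCs. The day 0 peaks of *Kcnt2*, *Mapk4* and *Etv1* were among those cut, so the genes called with all peaks could not be called.

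The rule has an edge at 1 library. The 6 sites with a peak in 6 of the 7 libraries were those of *Upp1*, which lacked a peak on day 9, and of *Cpsf4l*, *F2*, *Ankrd6*, *L1td1* and *Cldn3*, which lacked it on day 0. Just inside the rule, the smallest overlap with the site was 83 bp at *Pogz*, 91 bp at *Ppargc1b* and 102 bp at *Uhrf1bp1*. Among the 7 genes it was 111 bp at *Etv1*, in ESCs.

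Away from the site, most of the 7 genes had fewer bases under peaks within 20 kb of the gene body in ESCs than on day 0, as did most genes. At *Etv1* the ESC library stood apart. Outside its site it had 1892, 1867, 1852, 1792, 1914 and 1737 bp under peaks from day 0 to day 9, and 523 bp in ESCs. *Igsf9* differed from day 0 in each later library, with 2809 bp before doxycycline and 985, 421, 1318, 903, 730 and 562 bp from day 1 to ESCs. The 6 libraries after day 0 all lay below it, by 2-fold or more. *Kcnt2* had 1529, 970, 397, 517, 780, 200 and 572 bp from day 0 to ESCs, lowest on day 9. *Nup210* had 1742, 1855, 1203, 1259, 1654, 913 and 460 bp. At *Nup210* the 2 lowest libraries were thus the 2 in which the peak at its site was widest.

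*Chd6* had more peak bases than day 0 on days 1, 3 and 6 and slightly more in ESCs, and *Mapk4* on days 1, 2, 3 and 6. *Chd6* had 754, 1535, 688, 1245, 1855, 740 and 775 bp from day 0 to ESCs. *Mapk4* had 442, 581, 692, 523, 827, 353 and 200 bp. For both genes day 6 was the highest library. *Phc1* had 871 bp on day 0, 1581 bp on day 3 and between 679 bp (ESCs) and 1058 bp (day 1) in the others, and most of these bases belong to the promoter of its neighbour *M6pr*, whose peak was 679 to 871 bp wide in all 7 libraries.

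**Figure D3:**
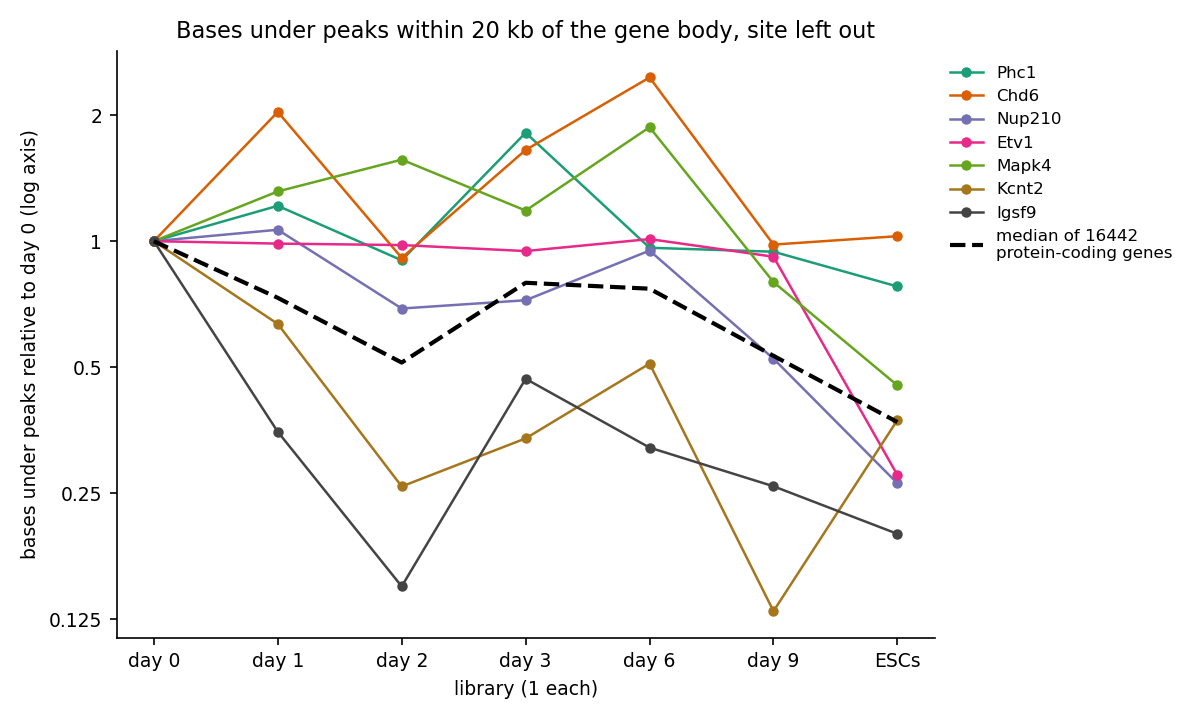
Bases under called peaks within 20 kb of each gene body, without the peaks at the site, relative to day 0 on a log axis, for the 7 genes (coloured lines) and the median of 16442 protein-coding genes (dashed line), by library. *Etv1* stayed between 0.918 and 1.01 until day 9 and stood at 0.276 in ESCs, and *Chd6* reached 2.46 on day 6.

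At a fold of 1.5 against day 0, 2 of 7 genes, *Igsf9* and *Kcnt2*, had fewer bases under peaks on day 1 (43.3% of 16442 protein-coding genes with a day 0 peak in the window) and *Chd6* had more (7.11%). On day 9, 3 of 7 had fewer (62.8%), namely *Igsf9*, *Nup210* and *Kcnt2*, and 0 had more (3.6%). In ESCs, 5 of 7 had fewer (75.3%), with *Phc1* and *Chd6* as the exceptions, and 0 had more (4.2%). The share in ESCs is near the background, so it says nothing particular to these genes. The median ratio of the 7 genes was 1.06 on day 1, 0.799 on day 9 and 0.374 in ESCs, beside 0.732, 0.532 and 0.370 in all genes, for which the peaks within 1000 bp of the gene start were left out. The libraries also differed in the number of peaks, from 61241 on day 0 to 27074 in ESCs, and the part of this in the ratios was not tested. Under the same 1000 bp exclusion for the 7 genes, a choice made after seeing the data, 4 of 7 had fewer in ESCs and *Mapk4* joined *Chd6* with more on day 1. Both changes concern *Mapk4* and count peaks at its own site that lie beyond 1000 bp, of 323 bp on day 1 and 206 bp in ESCs. Its day 0 site peak lies within 1000 bp and was left out, so neither change describes bases away from the site.

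Peaks of all libraries around the 7 genes merged into 38 elements off the sites, and each element was counted by the libraries in which it had a peak. Of these, 19 were lost (a peak on day 0 and none in ESCs, 50.0% beside 42.9% of 76504 merged regions within 20 kb of a protein-coding gene). Of the 38 elements, 12 had a peak on day 0 alone, beside 22.2% of the 76504 regions, and these are counted among the lost. The 3 gained elements (a peak in ESCs and none on day 0, 7.89% beside 11.6%) lie at *Chd6*, *Nup210* and *Mapk4*. The 10 transient elements (a peak on some of days 1 to 9 alone, 26.3% beside 30.1%) lie at all genes but *Etv1* and *Igsf9*. In all 7 libraries 3 elements had a peak (7.89% beside 12.6%), and 3 more had one on day 0 and in ESCs with a gap between (7.89% beside 2.75%). From day 0 to ESCs, 25, 18, 13, 18, 19, 12 and 9 of the 38 elements had a peak. When every list was cut to its 27074 widest peaks the order turned, with 20.0% of 25 elements lost (24.2% of the background) and 44.0% transient (32.7%). That cut left the ESC list whole and kept 27074 of 61241 peaks on day 0, and its part in the turn was not tested.

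Some elements followed a regular course over the time-points. At *Etv1*, elements 9.08 kb and 64.3 kb into the gene, both intronic, had a peak on each of days 0 to 9 and none in ESCs (2 of 38 elements, 5.22% of all regions), with widths of 530 to 649 bp and 622 to 743 bp. The remaining *Etv1* element, from -949 to -295 bp of the gene start, had a peak of 483 to 628 bp in all 7 libraries. At *Chd6*, an intronic element 52.0 kb into the gene had peaks of 573, 488, 534, 524 and 276 bp on days 1, 2, 3, 6 and 9, and none on day 0 or in ESCs. At *Mapk4*, an intronic element 60.6 kb into the gene had the same course, with 581, 692, 523, 827 and 353 bp (both together 2 of 38, 2.72%). At *Nup210*, an intergenic element 115 kb from the gene start, beyond the end of the gene, had no peak in MEFs before doxycycline and 739, 370, 401, 383, 247 and 236 bp afterwards (1 of 38, 0.767%). In the last 3 elements day 9 was the narrowest of days 1 to 9.

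**Figure D4:**
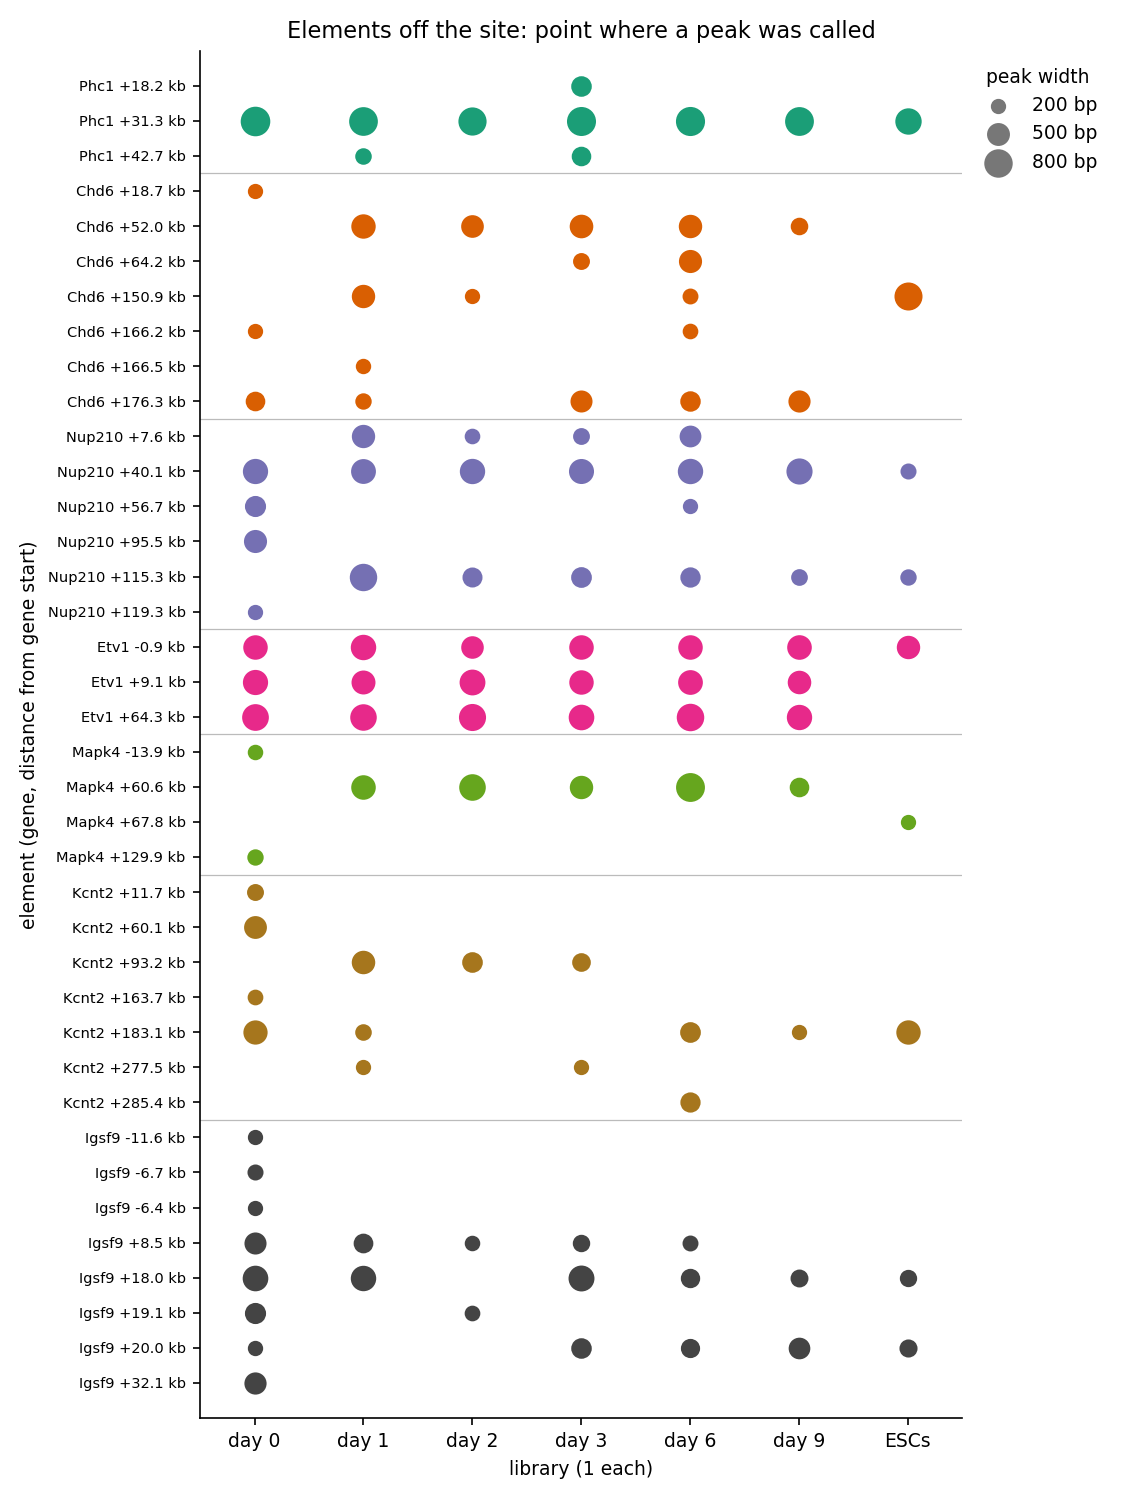
The 38 merged elements outside the sites (rows, by gene and distance from the gene start in kb), with a point in each library (columns) in which a peak was called and a point area that grows with the peak width in bp. The *Etv1* elements at 9.08 and 64.3 kb are filled from day 0 to day 9 and empty in ESCs, those of *Chd6* at 52.0 kb and *Mapk4* at 60.6 kb are filled from day 1 to day 9 alone, and 12 rows have a point on day 0 alone.

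Around *Igsf9*, 6 of 8 elements were lost, 4 of them with a peak on day 0 alone, and the other 2 had a gap. Several lie at the starts of its neighbours *Slamf9* and *Tagln2*. Around *Kcnt2*, 3 of 7 elements had a peak on day 0 alone and 3 were transient. The seventh, 183 kb into the gene, had 565, 242, 0, 0, 400, 200 and 572 bp from day 0 to ESCs. An element over an exon of *Nup210* at 40.1 kb had a peak in all 7 libraries, 597 to 666 bp wide on days 0 to 9 and 224 bp in ESCs. An element at 151 kb in an intron of *Chd6* had its widest peak, 775 bp, in ESCs, beside 522, 200 and 220 bp on days 1, 2 and 6 and none on days 0, 3 and 9.

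Sequences of 3 of these elements are given because each had peaks in a run of consecutive libraries. They are the bases under a peak in every library that has the element, at *Chd6* (chr2:161056777-161057052, minus strand) and *Etv1* (chr12:38788630-38788929, plus strand, the central 300 bases). The *Nup210* element (chr6:91001134-91001280, minus strand) had no base common to its 6 libraries, and its stretch lies under peaks of 5.
Chd6 52.0 kb element: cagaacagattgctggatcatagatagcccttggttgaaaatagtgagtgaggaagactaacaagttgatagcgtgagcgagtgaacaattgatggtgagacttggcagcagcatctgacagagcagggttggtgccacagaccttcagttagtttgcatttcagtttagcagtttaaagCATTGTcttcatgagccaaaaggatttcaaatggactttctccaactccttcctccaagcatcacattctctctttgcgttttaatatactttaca
Etv1 9.08 kb element: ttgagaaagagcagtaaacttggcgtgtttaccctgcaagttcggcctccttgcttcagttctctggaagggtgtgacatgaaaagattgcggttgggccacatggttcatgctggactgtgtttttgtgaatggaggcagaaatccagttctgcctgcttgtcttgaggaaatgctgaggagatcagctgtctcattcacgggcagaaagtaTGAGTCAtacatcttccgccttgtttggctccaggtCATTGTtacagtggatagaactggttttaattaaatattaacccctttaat
Nup210 115 kb element: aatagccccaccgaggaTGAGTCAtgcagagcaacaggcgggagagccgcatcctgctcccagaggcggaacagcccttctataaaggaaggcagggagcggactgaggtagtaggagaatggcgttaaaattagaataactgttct

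The capitals mark 1 ACAATG, as CATTGT on the other strand, in the *Chd6* element, 1 AP-1 match TGAGTCA and 1 CATTGT in the *Etv1* element and 1 TGAGTCA in the *Nup210* element. Over 5 elements (300 bp each), which are these 3, the *Etv1* element at 64.3 kb and the upstream *Etv1* element with a peak in all 7 libraries, AP-1 letters were present in 2, against 22.3% of all merged regions, and ACAATG in 3, the upstream *Etv1* element included, against 16.5%. Their CpG ratios, over 300 bp, ran from 0 to 0.608, beside a median of 0.230 for all merged regions.

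Related genes, listed by family, were compared by their promoter peaks. The lists include the 7 genes themselves, which were chosen for peaks close to their starts. Among 20 PRC1 genes, 19 had a promoter peak on day 0 and 18 in ESCs, with *Pcgf2* and *Kdm2b* on day 0 and not in ESCs and *Cbx7* in ESCs alone. Among all protein-coding genes, 11.3% had a promoter peak on day 0 and none in ESCs, and 2.75% the reverse. *Phc2* and *Phc3* each had a promoter peak in all 7 libraries, as 38.5% of all genes did, and so did *Phc1*, which was chosen for its peaks. Of 9 CHD remodellers, 6 had a promoter peak in all 7 libraries and 3 in none. Of 25 nucleoporins, 23 had one on day 0 and 20 in ESCs, with *Nup43*, *Nup85* and *Nup188* lacking it in ESCs.

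Among 24 ETS factors, 16 had a promoter peak on day 0 and 15 in ESCs, with *Etv3* and *Elk3* on day 0 and not in ESCs and *Etv2* the reverse. Among 14 MAP kinases, 13 had one on day 0 and 9 in ESCs, and *Mapk10*, *Mapk11*, *Mapk12* and *Mapk15* had one on day 0 and none in ESCs (4 of 14, beside 11.3% of all genes). A larger part of this family had a day 0 promoter peak that could be missing later. Counted over genes with a day 0 promoter peak alone, it was 4 of 13, beside 2476 of 11967 for all genes. Of the 4 Slo potassium channels, *Kcnt2* had a promoter peak in all 7 libraries, which its choice fixed, since its site lies within 1000 bp of the gene start. *Kcnt1* had a promoter peak in ESCs alone. Of 13 genes of the *Igsf9* family and other immunoglobulin adhesion genes, 5 had one on day 0 and 4 in ESCs, with *Ncam1* and *Nrcam* on day 0 and not in ESCs and *Dscam* in ESCs alone.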

How the data were processed

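ATAC-seq libraries of 7 mouse samples, 1 per time-point, were analysed. According to the labels and the methods, the authors trimmed reads (Trimmomatic), mapped them to mm10 (Bowtie2), removed duplicates (Picard), downsampled all samples to 1 depth that is not given in the sources used here, and ran the peak caller MACS2 separately per library. The deposited files list each peak's chromosome, start and end, and nothing else, so width and position were the measures and depth is unknown. The site coordinates came from the study's supplementary list of 66 putative RIEs.

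Overlap was counted at 1 bp or more. Genes were taken from GENCODE M21, and windows reached 20 kb beyond the gene body. Widths and bases under peaks were compared with day 0, and called past a fold of 1.5. With 1 library per group no test was made, and the groups are the time-points. Overlap was tested on simulated data, where 100% of 2000 planted regions were found. The width call was tested on a subset of them planted at doubled width, and all of that subset were called. Sequences were read from GRCm38.p6 outside annotated untranslated regions, and RefSeq promoters served as background. The *Mapk4* site was left out of the sequence search. Python 3.11.15, numpy 2.4.6, scipy 1.17.1, pysam 0.24.0, samtools 1.23.1 and matplotlib 3.10.9 were used. All 7 genes are named, and from each related list up to 4 genes with a promoter peak on day 0 or in ESCs but not in both. Members, lists and rules were chosen with earlier results of these data known. Alternatives concerned overlap, peak width, list length, window size, merging and promoter distance.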

Additional observations from a re-analysis of the deposited data

How the results depend on the processing

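Of 166 values recomputed under another setting, 117 stayed within 1.5 times and 49 moved. These values include background shares and the promoter counts of related and all genes, and all of those promoter counts stayed. The total therefore does not describe the results of the 7 genes alone. For these moves the cause was not tested. Among wide peaks alone (300 bp or more), 10 of 66 sites had a peak in all 7 libraries, 3 of them of the 7 genes (*Chd6*, *Nup210* and *Phc1*). Cutting every list to its 27074 widest peaks gave counts of 10 and 2 (*Chd6* and *Nup210*), and with an overlap of at least 50% of the site 8 and 2 (*Igsf9* and *Chd6*). A base under a peak in all 7 libraries, a setting chosen after seeing the data, gave 12 sites and 5 genes.

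With the widest peaks, 0 genes had wider site peaks on day 1, on day 9 or in ESCs. Narrower ones were called for 1 gene on day 1 (*Igsf9*) and 0 in ESCs. The genes called with all peaks, *Kcnt2*, *Mapk4* and *Etv1*, could not be called here. Their day 0 peaks (200 bp, 325 bp, and 262 and 200 bp) were cut, and a gene without a day 0 peak got no call. The *Igsf9* call came from leaving out narrow day 1 peaks, since with all peaks its day 1 ratio was 0.871. Counting bases of the site itself gave 1 narrower gene on day 1 (*Mapk4*) and 1 wider on day 9 (*Kcnt2*). A fold of 2 left 1 wider gene on day 9 and 1 in ESCs (*Kcnt2*). Over all 16 sites, also added after seeing the data, 6.25% were narrower on day 1, 12.5% wider and 12.5% narrower on day 9, and 12.5% wider and 25.0% narrower in ESCs.

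For bases under peaks around the genes, 5 kb windows gave 2 genes with more on day 1 (*Chd6* and *Mapk4*), 1 on day 9 (*Mapk4*) and 1 in ESCs (*Chd6*). Peaks at least 300 bp wide gave 1 with more in ESCs (*Chd6*). The widest peaks gave 1 with fewer on day 1 (*Kcnt2*) and *Nup210* in place of *Chd6* with more, since *Chd6* then had no day 0 peak in its window. Leaving out peaks within 1000 bp of the gene start gave 2 with more on day 1, *Chd6* and *Mapk4*, the latter with a day 1 peak at its own site counted. With the widest peaks 25 elements were left, of which 20.0% were lost (24.2% of the background), 16% gained (22.1%), 44.0% transient (32.7%) and 12.0% in all 7 libraries (17.0%). Lost elements were thus below and transient ones above the background, the reverse of the order with all peaks. The ESC list was left whole by this cut, while the day 0 list fell from 61241 to 27074 peaks.

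No paired analysis was possible because there is 1 library per group, and leaving out a library would leave none in its group. A stricter q-value was not run, since the files hold no score.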
